A study of Mus musculus with 27 samples.

Results

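The CYP4A and CYP4F enzymes are microsomal cytochrome P450 monooxygenases that place a hydroxyl group on the last carbon of a fatty acid, the omega position. The product is oxidized by alcohol and aldehyde dehydrogenases to a dicarboxylic acid, which peroxisomes and mitochondria then shorten, so the pathway takes up fatty acids beside the usual beta-oxidation. CYP4A genes are classical targets of the nuclear receptor PPARA in the rodent liver, and in the male mouse Cyp4a12a also follows androgen and growth hormone. CYP4F enzymes act on very long chain fatty acids, vitamin E and eicosanoids such as leukotriene B4, and Cyp4v3 is the mouse counterpart of human CYP4V2, the fatty acid hydroxylase mutated in Bietti crystalline dystrophy of the retina.

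The family described here was chosen by symbol: Cyp4a10, Cyp4a12a, Cyp4a12b, Cyp4a14, Cyp4f13, Cyp4f14, Cyp4f15, Cyp4f16, Cyp4f18 and Cyp4v3, 10 genes of which the annotation of the array names 9, through 12 of its 45281 probes. No probe carries the name of Cyp4a10, and that gene was not analysed here. The arrays are 27 Illumina MouseWG-6 v2 BeadChips of liver, epididymal fat and gastrocnemius muscle of male C57BL/6J mice that arrived at 4 weeks of age and then ate one of 3 diets for 16 weeks. The paper's methods give a fast of 12 h before the tissues were taken, so the comparisons of diets are between fasted mice. The ND group received a normal diet, the high-fat diet (HFD) group a diet of 20% fat and 1% cholesterol, and the UR group that same HFD with 0.05% by weight of ursolic acid, a triterpenoid of plants. Each diet and tissue has 3 arrays, each of a pool of RNA, so that n = 3 counts pools, and errors and p-values describe how pools, rather than single mice, varied. The labels and methods leave out which mice made up which pool.

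The signal of a probe was normalized over the 9 arrays of a tissue by quantiles, which gives every array the same distribution, and is given on the log2 scale, where 1 unit is a doubling. A probe was kept in a tissue if every one of the 3 arrays of some diet had a detection p under 0.05 for it, which left 17518 probes in the liver, 19455 in fat and 16332 in muscle. The liver kept 9 of the 12 CYP4 probes, for 8 genes; fat kept 6, for 4 genes, and muscle 4, for 3 genes. A change was called at a Benjamini-Hochberg adjusted p under 0.05 in limma, over all kept probes of the tissue. Of the hepatocyte markers 7 of 8 were kept in the liver, of the adipocyte markers 6 of 7 in fat, and of the skeletal muscle markers 6 of 6 in muscle. Among liver arrays the percentage of detected probes was lowest with the ND (34.2% to 35%), higher with the HFD (36.5% to 37.2%) and highest with UR (38.7% to 40%), without overlap, so detection and diet cannot be told apart. Total liver signal was likewise highest with UR, at 40602071 to 45514171 against 33610124 to 36807245 on the ND and HFD arrays, and another scaling that sets only the medians equal moved the median UR effect over all liver probes from -0.07 to 0.10. Effects of UR on the family in the liver were therefore estimated under both scalings. The changes printed for single genes of the lists are from quantile normalization alone.

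Cyp4f13 and Cyp4f14 fell with the HFD in the liver, and Cyp4f15 and 1 of the 2 kept probes of Cyp4f16 rose, although all 4 genes lie on chromosome 17, with Cyp4f13 and Cyp4f14 next to each other in the gene order. Their promoters, from 250 bases before to 50 bases after the start of the gene, are shown to set these sequences side by side, as RefSeq gives them for GRCm38.p6. The table holds promoters of 6 of the 10 genes, and those of the 4 CYP4A genes, on chromosome 4, are not shown. Cyp4f13 is at chr17:32947312-32947611 on the minus strand, Cyp4f14 (the first of its 4 listed starts) at chr17:32917307-32917606 on the minus strand, Cyp4f15 at chr17:32685409-32685708 on the plus strand and Cyp4f16 at chr17:32536307-32536606 on the plus strand. Each is written 5′ to 3′ in the direction of its gene, with GATTGG in capitals and, in Cyp4f16, also a match to the receptor motif described next.
Cyp4f13: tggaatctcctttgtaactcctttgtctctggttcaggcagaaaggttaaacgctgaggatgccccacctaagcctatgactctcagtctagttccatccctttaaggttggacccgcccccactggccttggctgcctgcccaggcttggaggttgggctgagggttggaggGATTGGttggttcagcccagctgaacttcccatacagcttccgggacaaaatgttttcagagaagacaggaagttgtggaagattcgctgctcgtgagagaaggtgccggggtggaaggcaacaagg
Cyp4f14: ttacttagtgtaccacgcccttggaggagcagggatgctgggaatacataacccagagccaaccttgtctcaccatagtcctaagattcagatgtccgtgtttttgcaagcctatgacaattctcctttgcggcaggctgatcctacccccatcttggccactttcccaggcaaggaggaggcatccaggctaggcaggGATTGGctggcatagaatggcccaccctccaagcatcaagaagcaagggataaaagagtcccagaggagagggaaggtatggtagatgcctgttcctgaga
Cyp4f15: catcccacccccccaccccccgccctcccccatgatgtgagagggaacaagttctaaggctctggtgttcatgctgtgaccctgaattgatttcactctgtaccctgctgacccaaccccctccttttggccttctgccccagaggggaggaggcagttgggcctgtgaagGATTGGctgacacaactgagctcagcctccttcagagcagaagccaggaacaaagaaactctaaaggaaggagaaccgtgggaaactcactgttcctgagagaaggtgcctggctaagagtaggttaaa
Cyp4f16: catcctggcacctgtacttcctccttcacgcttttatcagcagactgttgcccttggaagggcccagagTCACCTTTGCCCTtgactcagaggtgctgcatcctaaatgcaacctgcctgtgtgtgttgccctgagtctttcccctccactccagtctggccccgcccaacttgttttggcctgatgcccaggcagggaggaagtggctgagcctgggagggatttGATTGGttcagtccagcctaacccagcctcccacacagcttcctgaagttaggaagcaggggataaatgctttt

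The motif that PPARA binds with its partner RXR is a direct repeat, 2 copies of AGGTCA in the same direction 1 base apart. It was searched on both strands, and 0 of the 9 promoter windows of the 6 genes held it without mismatch, nor did any hold a single AGGTCA. With up to 2 mismatches in the 12 bases of the copies, 1 window matched, that of Cyp4f16, 181 to 169 bases before the gene start on the opposite strand (agggcaaaggtga on that strand). Among all 32851 promoter windows of the same length, 16.3% held AGGTCA on either strand, 0.0396% the exact repeat and 3.86% the repeat with up to 2 mismatches. GATTGG, the CCAAT box read on the other strand, was looked for after the sequences had been seen. It stood on the strand of the gene in the windows of all 5 CYP4F genes with a promoter, among them 3 of the 4 starts of Cyp4f14, between 24 and 79 bases before the start, and not in the window of Cyp4v3. Of all 32851 windows 8.71% held it on the strand of the gene. The CYP4F genes are members of the same gene family, and the windows of Cyp4f14 with the match overlap. Their windows are therefore not independent of each other. A match in these windows is a match of letters, and binding was not measured.

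The HFD lowered the CYP4A transcripts of the liver and split the CYP4F genes. Of the 9 kept probes 5 fell (Cyp4a12a, Cyp4a12b, Cyp4a14, Cyp4f13 and Cyp4f14) and 3 rose (Cyp4f15, 1 of the 2 probes of Cyp4f16, and Cyp4v3), where 11.6% of all 17518 liver probes fell and 13.3% rose. The 8 called probes were detected on all 9 liver arrays, while the other Cyp4f16 probe was kept through the HFD arrays alone. The median change over the 9 probes was -0.21 on the log2 scale, against -0.01 over all probes. With median scaling the directions were the same, and 5 probes were called in place of 8.

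Cyp4a12a, the main enzyme of the male mouse that makes 20-hydroxyeicosatetraenoic acid from arachidonic acid, read 14.69, 14.58 and 14.52 on the ND arrays, 14.01, 13.26 and 13.76 on the HFD arrays and 14.21, 14.01 and 13.95 on the UR arrays. Every HFD array lay below every ND array, and the second HFD pool was the lowest of the 9. The fall with the HFD was 0.92 on the log2 scale (SE 0.14, n = 3 pools against 3, adjusted p = 0.000484 by limma), a signal 0.527 times that of the ND. Leaving out any 1 of the 9 arrays gave changes between -1.09 and -0.72, all called.

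Cyp4a12b, the neighbouring gene of nearly the same sequence, read 13.94, 13.67 and 13.65 with the ND, 12.78, 12.07 and 13.18 with the HFD and 13.37, 12.83 and 12.59 with UR. All 6 arrays of the HFD and UR lay below the ND arrays, and the same HFD pool was again the lowest. The HFD change was -1.08 (SE 0.23, adjusted p = 0.00481), 0.474 times the ND signal, and -0.77 without that HFD pool. Across the 9 liver arrays the 2 probes had r = 0.917, and r = 0.788 after the diet means were taken off. The sequences of the probes were not used here, so how far each one binds the transcript of the other gene is unknown. Both probes enter the counts and medians given here, although they may not be 2 independent measures.

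Cyp4a14, a fatty acid hydroxylase strongly induced by PPARA ligands in mice, read 15.81, 15.87 and 15.87 with the ND, 15.50, 15.34 and 15.32 with the HFD and 15.55, 15.52 and 15.24 with UR. The ND arrays stood apart from the other 6, which overlapped. Its HFD change was -0.46 (SE 0.08, adjusted p = 0.000877), 0.725 times the ND signal. As deposited, its liver signals ran from 36749 to 59442, where the highest value of any probe was 69760, and whether such bright spots were near saturation cannot be read from the deposited columns.

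**Figure D1:**
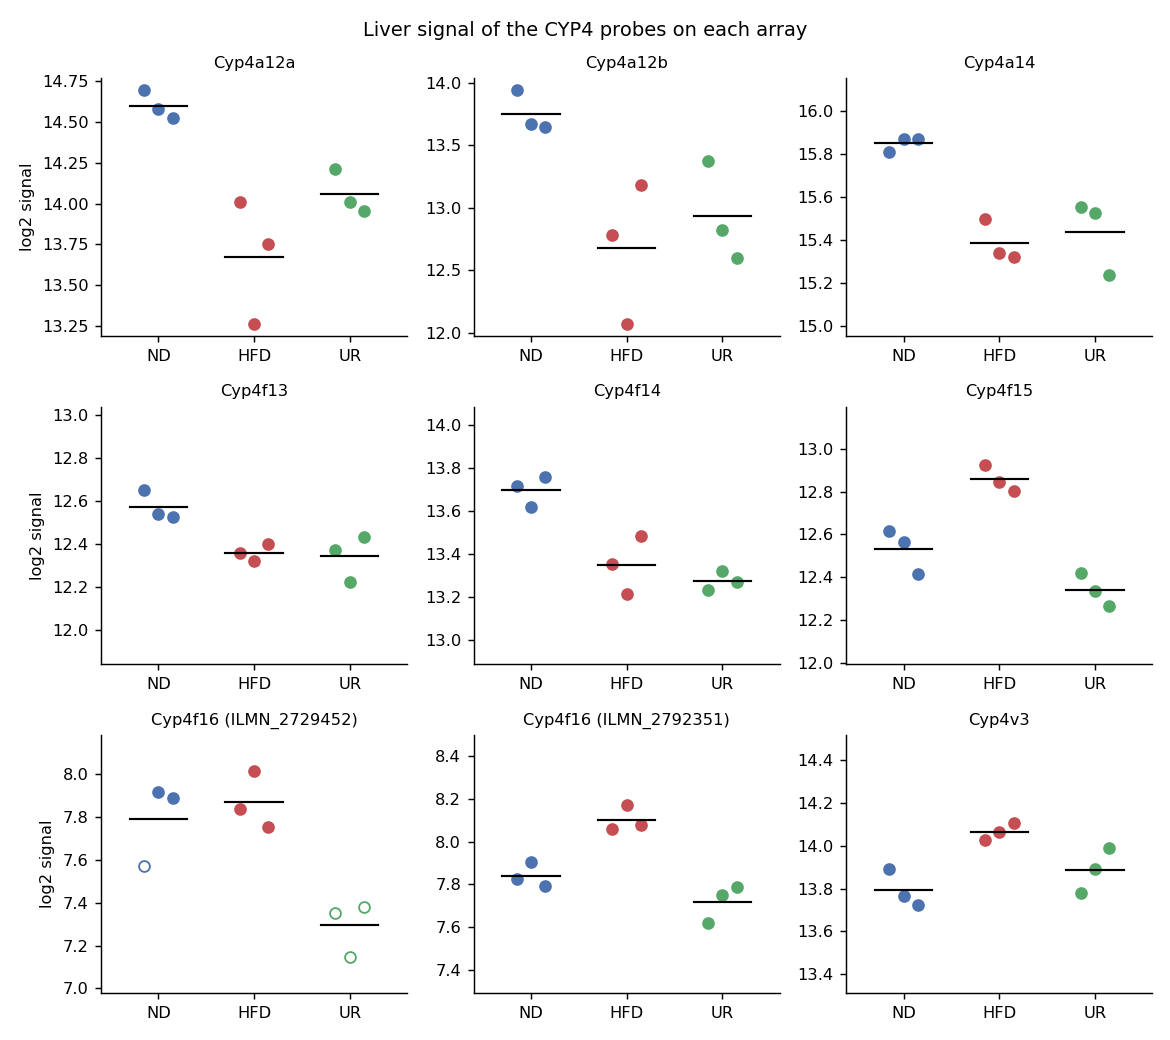
Log2 signal (vertical axis, own range in each panel) of the 9 CYP4 probes kept in the liver on the 9 liver arrays by diet. Points are pools 1 to 3 from left to right, hollow where the detection p was 0.05 or more, and lines are the means of 3 pools. The ND arrays lie above all HFD arrays for Cyp4a12a, Cyp4a12b, Cyp4a14, Cyp4f13 and Cyp4f14, and below them for Cyp4f15, Cyp4v3 and 1 probe of Cyp4f16.

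Cyp4f14, which hydroxylates leukotriene B4 in mice, read 13.72, 13.62 and 13.76 with the ND, 13.35, 13.21 and 13.48 with the HFD and 13.23, 13.32 and 13.27 with UR. No HFD or UR array reached the lowest ND array. It fell by 0.35 with the HFD (SE 0.07, adjusted p = 0.00308), and each of the 9 fits without 1 array kept the call. Cyp4f13, its neighbour, fell less, by 0.21 (SE 0.07, adjusted p = 0.0336), from 12.52 to 12.65 on the ND arrays to 12.32 to 12.40 on the HFD arrays. The groups did not overlap, but the call was lost in 5 of the 9 fits without 1 array (ND pool 1 or 2 or any HFD pool, changes of -0.24 to -0.17) and with median scaling (-0.24, adjusted p = 0.0798).

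Cyp4f15 moved the other way, at 12.61, 12.56 and 12.41 with the ND, 12.92, 12.85 and 12.80 with the HFD and 12.42, 12.33 and 12.26 with UR. The HFD arrays stood above all other arrays, and the lowest ND array lay within the UR arrays. The rise with the HFD was 0.33 (SE 0.07, adjusted p = 0.00392), and 0.28 with median scaling, where it did not pass the test (adjusted p = 0.0592). Cyp4f16 had 2 kept probes that disagreed in part. Its probe ILMN_2792351 read 7.82, 7.91 and 7.79 with the ND, 8.06, 8.17 and 8.08 with the HFD and 7.62, 7.75 and 7.79 with UR, a rise of 0.26 with the HFD (SE 0.06, adjusted p = 0.0101). The other, ILMN_2729452, read 7.57, 7.92 and 7.89 with the ND and 7.84, 8.01 and 7.75 with the HFD, and its change of 0.08 was not called (95% interval -0.14 to 0.29, adjusted p = 0.608). Both probes were dim, so Cyp4f16 in the liver was measured close to the limit of detection.

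Cyp4v3 read 13.89, 13.77 and 13.72 with the ND, 14.03, 14.06 and 14.11 with the HFD and 13.78, 13.89 and 13.99 with UR. The HFD arrays lay above all others, and the ND and UR arrays overlapped. Its rise with the HFD was 0.27 (SE 0.07, adjusted p = 0.00893), against 0.21 (adjusted p = 0.0997) under median scaling, where it was not called. Cyp4f18, the leukotriene B4 hydroxylase of mouse neutrophils, had no kept probe in the liver. Its probe ILMN_3090207 passed detection with 2 of the HFD pools and with no ND or UR pool, at 7.53 to 7.65 with the HFD, 7.19 to 7.20 with the ND and 7.37 to 7.46 with UR.

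Addition of UR to the HFD lowered Cyp4f16 in the liver under both scalings by the probe detected on all 9 liver arrays, ILMN_2792351. Its second probe, ILMN_2729452, was kept through the HFD arrays alone, a filter that favours a fall from the HFD, and is no support for the first. The other calls depended on the scaling or on single arrays. Relative to the HFD 1 probe rose (Cyp4a12a) and 4 fell (Cyp4f15, both probes of Cyp4f16, and Cyp4v3) of the 9, where 21.9% of all liver probes rose and 33.2% fell. The members' median of -0.08 was close to the -0.07 over all probes. With median scaling 5 probes were called again, but they were Cyp4a12a, Cyp4a14 and Cyp4f13 upward and both probes of Cyp4f16 downward, so that 3 of the 5 calls were shared between the scalings.

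Cyp4a12a rose by 0.38 relative to the HFD (SE 0.14, adjusted p = 0.0342), a signal 1.30 times that of the HFD, although its UR arrays overlapped with the highest HFD array. Without HFD pool 2, the lowest of the 9, the difference was 0.17 (adjusted p = 0.145), without UR pool 1 it was 0.31 (adjusted p = 0.121) and without UR pool 2 0.41 (adjusted p = 0.0621), while median scaling gave 0.62 (adjusted p = 0.00329). The Cyp4a12b difference of 0.25 was not called (95% interval -0.25 to 0.76, adjusted p = 0.376) and turned to -0.05 without HFD pool 2. Cyp4a14 differed by 0.05 (95% interval -0.12 to 0.22, adjusted p = 0.593), and by 0.23 with median scaling (adjusted p = 0.049).

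Cyp4f15 fell by 0.52 with UR (SE 0.07, adjusted p = 3.58e-05), to 0.698 times the HFD signal, with no UR array reaching an HFD array. The size depended on the scaling, since median scaling gave -0.22 (adjusted p = 0.075). The fall of Cyp4f16 was 0.38 by ILMN_2792351 (SE 0.06, adjusted p = 0.000261), against -0.31 (adjusted p = 0.0013) under median scaling. Its probe ILMN_2729452 read 7.35, 7.15 and 7.38 with UR, not detected on any of these 3 arrays, which bounds the HFD signal at at least 1.29-fold higher (fitted difference -0.57, adjusted p = 0.000308). As this probe was kept only through the HFD arrays, where it was high, that fall is given as a value and not as support. Cyp4v3 fell by 0.18 (SE 0.07, adjusted p = 0.0339), a call that was lost without HFD pool 2 or 3 or UR pool 1 or 2 (-0.18 to -0.13) and that median scaling turned to 0.05 (adjusted p = 0.641). For Cyp4f13 (-0.02, 95% interval -0.16 to 0.13) and Cyp4f14 (-0.08, 95% interval -0.23 to 0.07) no difference was called, and median scaling gave 0.25 (adjusted p = 0.0336) and 0.18 (adjusted p = 0.13).

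**Figure D2:**
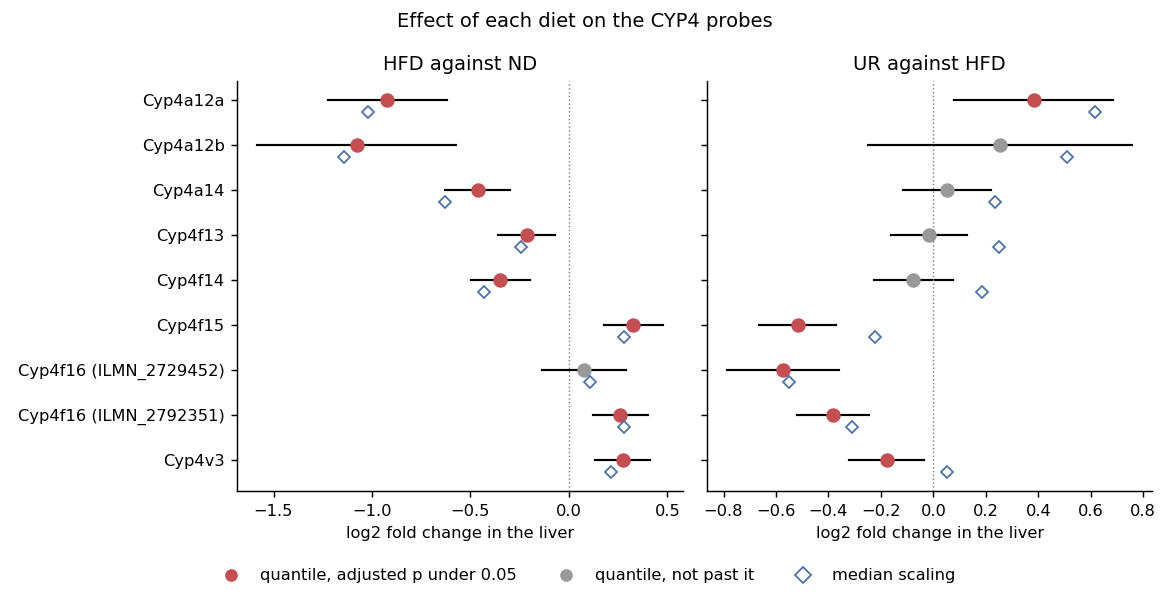
Log2 fold change in the liver (horizontal axis) of each CYP4 probe with the HFD against the ND (left) and with UR against the HFD (right). Circles with 95% confidence bars are limma estimates from quantile-normalized values of 3 pools against 3, red where the adjusted p was under 0.05, and diamonds are the estimates after median scaling. The HFD estimates keep their side of 0 under both scalings, while the UR estimates of Cyp4f13, Cyp4f14 and Cyp4v3 change sides.

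Set against the ND, the UR livers were lower for 7 of the 9 probes and higher for none, where 35.1% of all liver probes were lower and 25% higher. Cyp4f16 by ILMN_2729452, not detected with UR, was at least 1.23-fold lower (adjusted p = 0.00073). The CYP4A differences from the ND were -0.54 for Cyp4a12a (adjusted p = 0.00467), -0.82 for Cyp4a12b (adjusted p = 0.00801) and -0.41 for Cyp4a14 (adjusted p = 0.000473), and that of Cyp4f14 was -0.43 (adjusted p = 0.00017). With median scaling these 4 were still called, at -0.41, -0.64, -0.40 and -0.25, and so was ILMN_2729452 at -0.45. The smaller differences of Cyp4f13 (-0.23) and Cyp4f15 (-0.19) became 0.01 and 0.06 with median scaling, neither called, and Cyp4v3 (0.09, not called) became 0.27 (adjusted p = 0.0153). The 3 comparisons share arrays, the HFD arrays entering both the HFD and the UR effect.

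Among these tissues the measured CYP4A genes were detected in the liver alone. With all 27 arrays normalized together, 10 of the 11 CYP4 probes kept in the liver or fat differed between the ND livers and ND fat, and 9 of 9 between liver and muscle, where 81.9% and 84.5% of all probes tested differed. A probe kept in the liver alone, or in the other tissue alone, entered through that tissue, a filter that favours a difference. These counts were thus partly set by the filter and support nothing further. Cyp4a12a, Cyp4a12b, Cyp4a14, Cyp4f14 and Cyp4f15 were detected on no array of fat or muscle. Against fat the liver signal with the ND was at least 289-fold higher for Cyp4a14, at least 117-fold for Cyp4a12a, at least 65-fold for Cyp4a12b, at least 62.6-fold for Cyp4f14 and at least 30.4-fold for Cyp4f15, where the dim group was set at the lowest detected signal of its arrays or its own, whichever was higher. Against muscle the bounds were 259, 105, 58.2, 56 and 27.2 in the same order.

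Cyp4f13 was detected on all 27 arrays and Cyp4v3 on all but 1, an ND muscle array, and both stood in one order from liver to fat to muscle. For Cyp4f13 the ND means on the common scale were 12.47, 10.89 and 9.33, the liver 3-fold above fat (adjusted p = 3.39e-19) and 8.84-fold above muscle (adjusted p = 1.08e-26). For Cyp4v3 they were 13.56, 12.22 and 7.71, the liver 2.53-fold above fat (adjusted p = 6.95e-17) and by the measured means 57.6-fold above muscle (adjusted p = 7.91e-33), where it was detected on 2 of the 3 ND arrays and lay near the detection limit, so that this fold is uncertain. Cyp4f16 was not ordered in that way. Probe ILMN_2792351 of Cyp4f16 read 8.64 in ND fat against 7.96 in the liver (liver minus fat -0.68, adjusted p = 4.75e-09), while ILMN_2729452 did not differ between them beyond its spread (-0.03, adjusted p = 0.741). Against ND muscle the liver was higher by both probes, by 0.27 for ILMN_2792351 (adjusted p = 0.00215) and at least 1.18-fold for ILMN_2729452, not detected in ND muscle (adjusted p = 0.000105). The third Cyp4f16 probe, ILMN_2719687, was kept through fat alone and not detected in the ND livers. Its fitted liver minus fat difference was -0.48 (adjusted p = 3.58e-08 by limma), which that filter favours. Cyp4f18, not detected in the ND livers, was at least 1.22-fold higher in fat (adjusted p = 2.21e-10 by limma). Its probe entered this test through fat alone, where it was high, so the difference is given as a value and not as support. In such bulk tissue more transcript per cell and more cells that express it cannot be told apart.

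**Figure D3:**
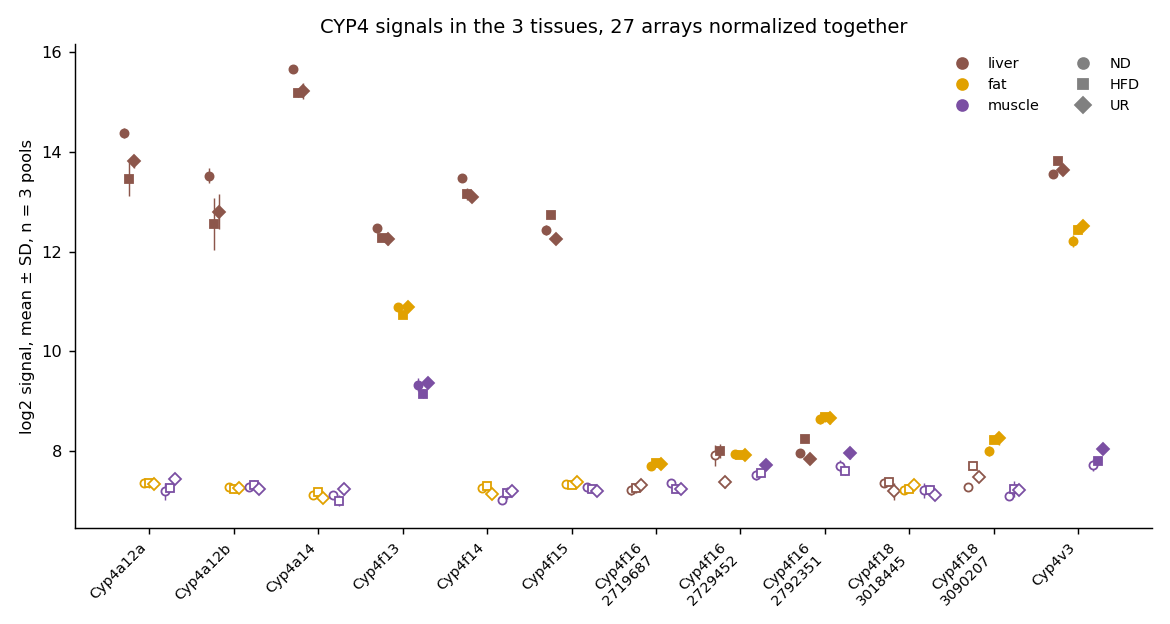
Log2 signal (vertical axis, 27 arrays normalized together) of the 12 CYP4 probes in liver, fat and muscle, as mean ± SD of 3 pools for each diet. Markers are hollow where the probe was not detected on all 3 arrays. Cyp4a12a, Cyp4a12b, Cyp4a14, Cyp4f14 and Cyp4f15 stand out in the liver alone, Cyp4f13 and Cyp4v3 step down from liver to fat to muscle, and Cyp4f18 is detected on all 3 arrays of a diet in fat alone.

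In epididymal fat the HFD changed 3 of the 6 kept probes and UR none. Cyp4f18 rose by 0.27 (SE 0.08, adjusted p = 0.0203), from 8.45, 8.62 and 8.38 with the ND to 8.82, 8.73 and 8.71 with the HFD, without overlap. Cyp4v3 rose by 0.19 (SE 0.06, adjusted p = 0.0279), from 12.72, 12.53 and 12.53 to 12.73, 12.77 and 12.85. Cyp4f13 fell by 0.16 (SE 0.06, adjusted p = 0.0445), from 11.50, 11.42 and 11.37 to 11.29, 11.29 and 11.24. Of all fat probes 17.4% rose and 20.7% fell with the HFD. Only 1 probe was called after any single ND or HFD array of fat was left out, and with median scaling Cyp4v3 was not called (0.17, adjusted p = 0.0622). The 3 Cyp4f16 probes changed by -0.03 to 0.09 and none was called. Macrophage markers rose on the same arrays: 5 of the listed genes were kept and all 5 rose. Their summed signal was 31095 to 36387 with the HFD against 12420 to 13849 with the ND. The defining marker Cd68 was not kept. Of 10 neutrophil markers 4 were kept, 2 rose and 1 fell, with Ly6g and Mpo not kept and sums of 3166 to 4392 against 1638 to 2197. The part of either cell type in the rise of Cyp4f18 was not tested.

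With UR, 0 of the 6 fat probes were called by limma against the HFD (1 at an unadjusted p under 0.05, by limma), where 3.42% of all fat probes rose and 4.13% fell. Cyp4f13 came nearest, at 11.44, 11.46 and 11.41 with UR, all above the HFD arrays (0.17, SE 0.06, adjusted p = 0.0979).

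In gastrocnemius muscle none of the 4 kept probes was called with the HFD by limma, against 6.00% of all muscle probes up and 7.02% down. Cyp4f13 had the lowest p, with a change of -0.18 (95% interval -0.33 to -0.03, adjusted p = 0.115) that was called with median scaling (-0.33, adjusted p = 0.0155), a scaling that moved the median of all muscle probes from 0.01 to -0.11. At an unadjusted p under 0.05 limma counted 1 of the 4. With UR 3 of the 4 probes rose, where 11.8% of all muscle probes rose and 10.2% fell. Cyp4f13 rose by 0.22 (SE 0.07, adjusted p = 0.0423), from 8.55, 8.70 and 8.69 with the HFD to 8.88, 8.81 and 8.89. Cyp4v3 rose by 0.18 (SE 0.06, adjusted p = 0.0427), from 7.55, 7.44 and 7.45 to 7.67, 7.65 and 7.65. Cyp4f16 by ILMN_2792351 missed detection with all 3 HFD pools and was with UR at least 1.14-fold higher (adjusted p = 0.0129), having been kept through the UR arrays alone, like the second probe of that gene (0.11, adjusted p = 0.165). All 3 calls stood with median scaling, and 1 or 0 probes remained called without any single HFD or UR array of muscle (0 without UR pool 3). In the same comparison 3 of 4 kept macrophage markers and 5 of 6 kept stellate cell and fibroblast markers rose. The macrophage sums were 1316 to 1678 against 998 to 1049, with Cd68 and Itgam not kept. The stellate cell and fibroblast sums were 40318 to 42955 against 37742 to 39019. The part of these cells in the CYP4 rises was not tested.

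By ILMN_2792351 the effect of UR on Cyp4f16 differed between liver and fat, where this probe was detected on every array. For the 4 probes kept in all 3 tissues the difference of the UR effect between liver and fat was called for 3 and that between liver and muscle for 4, where 50.3% and 43.3% of all probes differed in this way. Its fat estimate was -0.0043 and the liver minus fat difference -0.38 (SE 0.10, adjusted p = 0.00276), or -0.34 with median scaling (adjusted p = 0.0126). The difference from muscle was -0.63 by this probe (SE 0.10, adjusted p = 1.19e-05), and for ILMN_2729452 the differences were -0.57 from fat and -0.69 from muscle. These last 3 values were favoured by the filter, which kept both probes in muscle through UR alone and ILMN_2729452 in the liver through the HFD alone, and they rest on groups not above background (UR livers for ILMN_2729452, HFD muscle for both), so their sizes are not exact and they support nothing further. The differences of Cyp4v3 (-0.25 against fat and -0.35 against muscle) and of Cyp4f13 (-0.23 against muscle) were called with quantile normalization alone, since median scaling gave -0.04, -0.14 and -0.03, none called. For the HFD effect the liver differed from fat in 0 of the 4 probes by limma (1 at an unadjusted p under 0.05, and 0 with median scaling) and from muscle in 1, Cyp4f16 by ILMN_2792351 (0.32, SE 0.10, adjusted p = 0.0185), which was not detected in HFD muscle. Of all probes 31.5% and 25.8% differed in these comparisons.

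**Figure D4:**
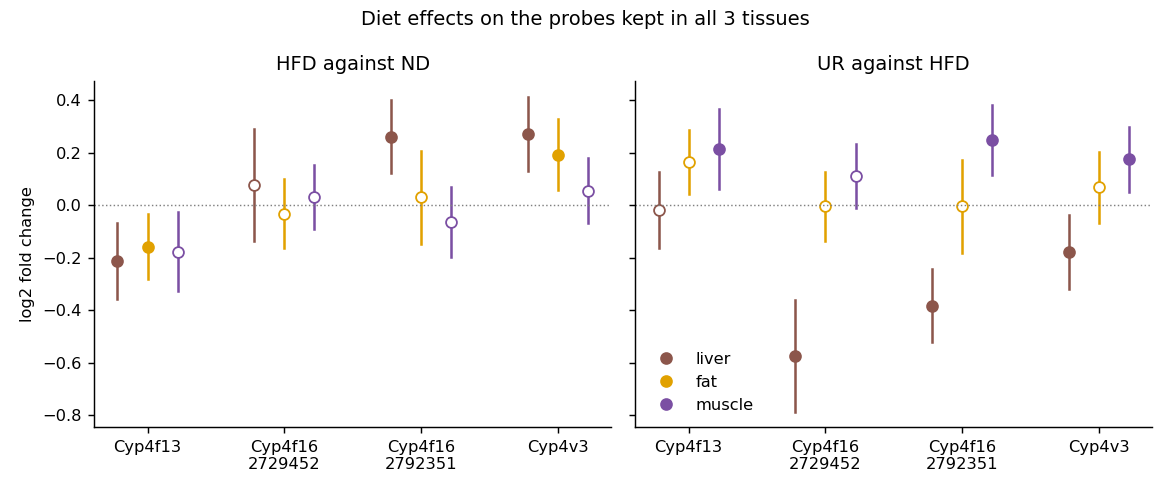
Log2 fold change (vertical axis) of the 4 CYP4 probes kept in all 3 tissues, with the HFD against the ND (left) and with UR against the HFD (right), in liver, fat and muscle. Points with 95% confidence bars are limma estimates from 3 pools against 3 with quantile normalization, filled where the adjusted p was under 0.05. Cyp4f16 by ILMN_2792351 falls with UR in the liver (-0.38) and lies near 0 in fat (-0.0043), and the Cyp4f16 points of muscle and that of ILMN_2729452 in the liver involve arrays without detection.

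The genes around these enzymes are given from lists of the pathway, with the brightest kept probe for each gene. By that rule 16.3% of the 9784 liver genes rose and 11.2% fell with the HFD, and 19.3% rose and 35.4% fell with UR. Of 38 PPARA targets outside the family 32 were measured: 14 fell with the HFD, 3 rose and 15 did not pass the test, with a median of -0.20 against 0.00 over all genes. The 4 with the smallest p were Pdk4, the kinase that shuts pyruvate dehydrogenase (-1.94), Cpt1a, the gate of mitochondrial fatty acid entry (-0.53), the hepatokine Fgf21 (-1.30) and Krt23, a keratin (2.11). With UR 12 rose and 7 fell (median -0.02 against -0.09), led by Hadhb, the thiolase subunit of mitochondrial beta-oxidation (1.90), Eci2, an enoyl-CoA isomerase (1.39), Decr2, a peroxisomal dienoyl-CoA reductase (-0.65), and Pdk4 (-1.04). With median scaling the counts were 2 up and 11 down for the HFD and 13 up and 3 down for UR. Over all genes that scaling called 16.6% up and 5.90% down with the HFD and 33.7% up and 12% down with UR, and the counts under median scaling given next stand against these shares.

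Genes of the steps after the hydroxylation moved in both directions. Of 8 measured alcohol and aldehyde dehydrogenases 3 rose with the HFD and 1 fell, Adh7 falling by 0.81 while Aldh1a1 rose by 0.76, Aldh1a7 by 0.74 and Aldh3a2, the fatty aldehyde dehydrogenase, by 0.26. With UR 2 rose, Aldh1a1 by 1.82 and Aldh1a7 by 1.09, and Aldh2 fell by 0.12, while with median scaling 4 rose and 1 fell. The 2 Aldh1a genes are retinaldehyde dehydrogenases or close relatives of them rather than enzymes of fatty aldehydes. The list for peroxisomal oxidation of dicarboxylic acids shares Acot3, Acot4, Acaa1a, Acaa1b and Ehhadh with the PPARA targets. It shares Abcd2 with the female-biased genes given below, so the counts of these lists overlap. Of its 18 measured genes 5 fell and 2 rose with the HFD. Among them were the acyl-CoA thioesterases Acot3 (-1.60) and Acot4 (-0.75), the carnitine acetyltransferase Crat (-0.75) and Acox2, an oxidase of branched chains (0.46). With UR 6 rose and 5 fell (8 and 2 with median scaling). Acot4 stood at 1.04, the transporter and synthetase Slc27a2 at 0.36 and Acox3, an acyl-CoA oxidase, at -0.55. Suclg1, at 0.35, is on the list but is a subunit of the mitochondrial succinyl-CoA ligase rather than a peroxisomal enzyme. Among the electron donors of P450 enzymes 3 of 4 were measured, and Cyb5a, cytochrome b5, rose with the HFD (0.24) and with UR (0.38), while Cyb5r3 fell with UR by 0.30. With median scaling 0 rose and 0 fell with the HFD, and 2 rose and 0 fell with UR. The rise of Cyb5a with the HFD and the fall of Cyb5r3 with UR were thus called with quantile normalization alone.

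Ppara itself fell with the HFD by 0.25 (SE 0.08, adjusted p = 0.0262) and by 0.23 with UR (SE 0.08, adjusted p = 0.0212). Of 21 measured nuclear receptors and regulators 3 rose and 6 fell with the HFD, led by Srebf1, the regulator of lipogenesis (1.10), Pparg (0.63), the coactivator Ppargc1a (-0.70) and Foxa2 (-0.39). With UR again 3 rose and 6 fell, led by the xenobiotic receptor Nr1i2 (0.55), the growth hormone receptor Ghr (0.38), Hnf4a (0.53) and Rxrb (-0.28). With median scaling the HFD counts became 2 up and 3 down, so that not all falls with the HFD were called under both scalings. Whether that of Ppara was is not given here. The UR counts became 5 up and 0 down with median scaling, so that none of the falls with UR, that of Ppara included, was called under both scalings. Of 9 measured leukotriene and eicosanoid genes 4 rose and 1 fell with the HFD, with the epoxide hydrolase Ephx1 at 0.51, the phospholipase Pla2g6 at 0.65, the leukotriene B4 receptor Ltb4r1 at -0.29 and Hpgd, which inactivates prostaglandins, at 0.51. With UR 3 rose and 3 fell (4 and 1 with median scaling), with Hpgd at 1.18, Pla2g6 at 0.63, Pla2g12b at -0.51 and Alox5ap, the partner of 5-lipoxygenase, at -0.50.

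Of the male-biased liver genes, to which Cyp4a12a belongs, 15 were measured outside the family, and with the HFD 7 fell, 1 rose and 7 did not pass the test (median -0.27), with the elongase Elovl3 at -2.07, Susd4 at -1.27, the complement gene C8b at -1.30 and the oxysterol hydroxylase Cyp7b1 at -1.02, and with median scaling 10 fell and 1 rose. With UR 4 rose and 1 fell (5 and 0 with median scaling, where 33.7% of all genes rose), with the glucuronosyltransferase Ugt2b1 at 2.37, Nat8 at 1.05, Cyp2d9 at 0.35 and Elovl3 at -0.40. The fall of Elovl3 with UR was thus called with quantile normalization alone. Of 7 measured female-biased genes 3 rose with the HFD, the CYP2B genes Cyp2b10 (2.28), Cyp2b9 (3.85) and Cyp2b13 (2.46), and 3 fell, among them Cyp17a1, a steroid hydroxylase (-2.52). With UR 1 rose, Cyp2a4 (1.41), and 3 fell, Cyp2b10 (-1.15), Cyp17a1 (-0.47) and Cyp2b13 (-0.81), against 3 up and 1 down with median scaling. Of 10 other CYP4 genes 2 were measured, and Cyp4a31, the gene after Cyp4a10 on chromosome 4, fell with the HFD by 0.68 (SE 0.15, adjusted p = 0.00519) while Cyp4b1 fell with UR by 0.59 (SE 0.09, adjusted p = 0.000141).

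**Figure D5:**
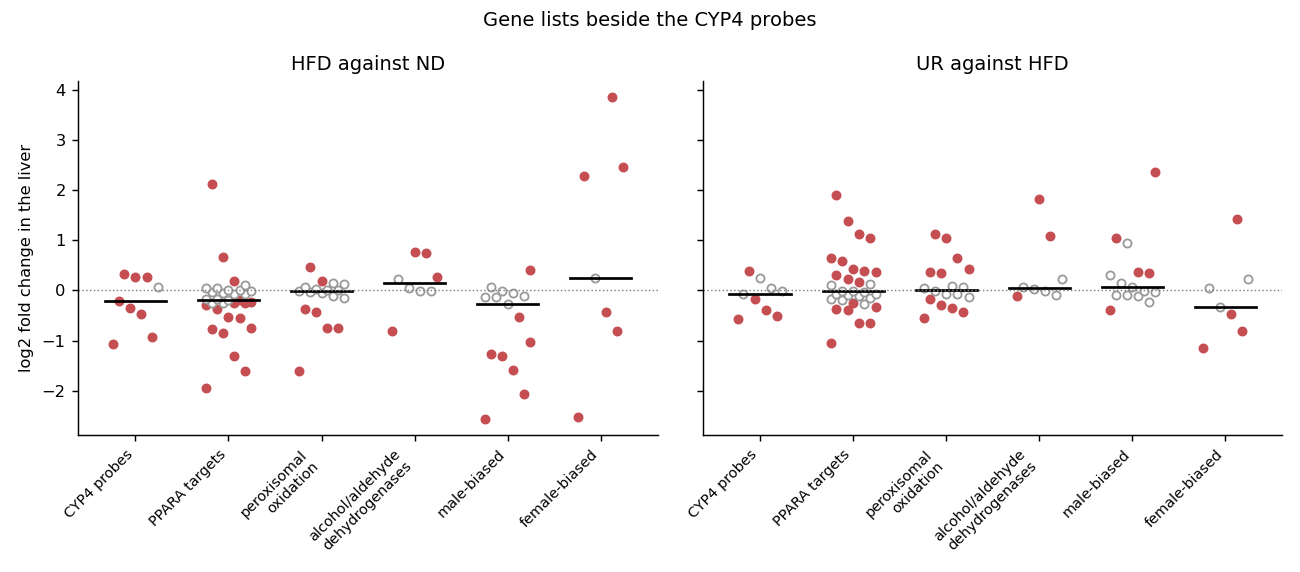
Log2 fold change in the liver (vertical axis) of the CYP4 probes and of the measured genes of 5 lists, with the HFD against the ND (left) and with UR against the HFD (right). Each point is a probe or gene, filled where the adjusted p was under 0.05, and black lines are medians. With the HFD the medians of the CYP4 probes (-0.21), the PPARA targets (-0.20) and the male-biased genes (-0.27) lie below 0. That of the peroxisomal list (-0.02) is just below 0, and those of the dehydrogenases (0.14) and the female-biased genes (0.25) are above it.

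Markers of other cells moved on the same liver arrays. With the HFD 5 of 5 kept macrophage markers rose, with a summed signal of 8007 to 8863 against 5498 to 5749, as did 4 of 7 stellate cell and fibroblast markers and 4 of 5 kept endothelial markers, while of 7 kept hepatocyte markers none rose and 2 fell, with sums of 290030 to 299384 against 299081 to 306125. Of the macrophage list Cd68, Cd5l and Itgam were not kept in the liver. With UR the macrophage sum was 6186 to 7170 and 3 of 5 markers rose while 2 fell, and the hepatocyte sum was 302667 to 307543. The part of cell makeup in the CYP4 changes was not tested.

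The genes whose liver signal followed a member most closely were listed by Pearson's r over the 9 arrays, as a description, since all points share the 3 diets. For Cyp4a12a these were Plekhb1 (0.973), Hint1 (0.967), Aff4 (0.956), Cluh (0.952) and Tmem30a (0.947), and for Cyp4a12b Hint1 (0.98), Phb2 (0.958), Thoc3 (0.947), Gtf2ird2 (0.947) and Inhbc (0.942). Urod (0.989), Dgkq (0.965), Gm4951 (0.959), G0s2 (0.958) and Amigo2 (0.947) were nearest to Cyp4a14, and Psma7 (0.978), Tesmin (0.97), Scrn3 (0.968), Vamp8 (0.967) and Ces3b (0.966) to Cyp4f14. Hint1 stood in 2 of the 4 lists. Within the family Cyp4f15 followed Cyp4f16 (r = 0.87 with ILMN_2792351) more closely than Cyp4f13 (r = -0.05) or Cyp4f14 (r = -0.02), and after the diet means were taken off the first r was -0.26.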

How the data were processed

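The authors hybridised pooled RNA of 3 tissues to Illumina BeadChips, and the deposited table holds 1 probe intensity, on a linear scale and without log transformation, and 1 detection p-value per array, as the authors exported them from the scanner software. A deposited normalized log2 table was used as a check only: it differed by at most 0.124 from the liver values and 0.0889 from the fat values computed here, and its 9 muscle columns equal the fat columns in all 45281 rows and were not used. Signals were quantile-normalized within each tissue, log2-transformed and fitted with limma 3.58.1 in R 4.3.3 (lmFit, eBayes with trend), which was tested on simulated data. Differences between tissues came from 1 model over 27 arrays, and levels between tissues from all arrays normalized together. For a gene of several probes each probe was kept, and for other genes the brightest. Of the list genes, the 4 with the smallest p in each list were named. Probe symbols follow the platform annotation, with 34885 probes of 1 symbol and 18 of several. Members and lists were chosen with earlier results of these data known. Alternatives were median scaling, neqc background correction, no probe filter, stricter thresholds, fits of 2 groups, array weights, a replicate block, the methods' t-test and rank products, and each array left out in turn. No chip or batch identifier is in the labels, so batches were not modelled, and the number of arrays limits the precision. No 2 arrays were identical, the highest correlation being 0.9977. The number of mice differs between the labels and the paper's methods. Same-numbered ND arrays deviated together between liver and fat (r of 0.139, 0.184 and 0.193, all 3 over 0.1). Between liver and muscle they did so less (0.0954, 0.112 and 0.106). The tests of ND levels between tissues, and those of the HFD effect between tissues, nevertheless treated arrays as independent and used no such pairing. The labels do not say what a number marks. With a replicate block shared by all diets and tissues the counts of the level comparisons stayed at 10 and 9. That block does not model pairs within the ND, so it cannot tell how pairing would change these tests.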

Additional observations from a re-analysis of the deposited data

Results flagged for a closer look

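These differences between tissues passed the test of the difference itself. For the UR effect, liver minus fat was -0.5705 and -0.3782 on the log2 scale for the Cyp4f16 probes ILMN_2729452 and ILMN_2792351 and -0.2476 for Cyp4v3. Liver minus muscle was -0.6863 and -0.631 for the same Cyp4f16 probes, -0.3541 for Cyp4v3 and -0.2318 for Cyp4f13. For the HFD effect, liver minus muscle was 0.3233 for Cyp4f16 by ILMN_2792351. With median scaling the Cyp4f16 differences were still called, and those of Cyp4v3 and Cyp4f13 were not. The Cyp4f16 values other than that of ILMN_2792351 between liver and fat involve a group not above background, and for the UR effect the detection filter favours them.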

How the results depend on the processing

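Counts of called probes moved most with the threshold and the tool. In the liver the HFD count of 8 became 5 with median scaling, 2 with a log2 change over 0.5, 1 with the methods' t-test after adjustment and 2 with rank products. The UR against HFD count of 5 became 3 at an adjusted p under 0.01, 2 with a log2 change over 0.5, 3 with the t-test adjusted or unadjusted and 0 with rank products, and the UR against ND count of 7 became 2, 4 (t-test adjusted) and 1 (rank products). In fat the HFD count of 3 became 0 at an adjusted p under 0.01, with the log2 threshold, with the adjusted t-test and with rank products, and 1 with 2 groups only or no probe filter, while the UR count of 0 became 1 with array weights and with the unadjusted t-test. In muscle the HFD count of 0 became 1 with median scaling, and the UR count of 3 became 0 at an adjusted p under 0.01, with the log2 threshold, with the adjusted t-test and with rank products, and 1 with no filter. The liver against muscle UR differences fell from 4 to 2 with median scaling.

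Median scaling turned the sign of Cyp4f13 (0.2511 for UR against HFD, 0.0099 for UR against ND), Cyp4f14 (0.1837), Cyp4v3 (0.0536) and, against the ND, Cyp4f15 (0.0567). It moved the share of calls that were upward over all probes from 53.4% to 69.6% for the liver HFD effect, 39.7% to 73.8% for UR against HFD, 41.6% to 76.5% for UR against ND, 45.3% to 63.1% for UR in fat, and 46.1% to 3.42% and 53.7% to 83.3% for the HFD and UR in muscle. Leaving out 1 array gave counts of 7 to 8, 3 to 5 (3 without HFD pool 2 or UR pool 1 or 2) and 5 to 7 in the liver, 1 to 2 and 0 to 0 in fat, and 0 to 1 and 0 to 3 in muscle. The differences between tissues gave 0 to 1 and 2 to 4 against fat and 0 to 2 and 3 to 4 against muscle, and the levels 10 to 10 and 9 to 9. It turned the sign of Cyp4f16 by ILMN_2729452 with the HFD (-0.0351 to 0.1415) and, for UR against HFD, of Cyp4a12b (-0.0538 to 0.5053), Cyp4f13 (-0.0617 to 0.0433) and Cyp4a14 (-0.004 to 0.1551). Between diets within the liver, same-numbered arrays did not deviate together (r from -0.154 to 0.196, 1 of 9 over 0.1), and the labels name no shared origin. With the replicate block the counts were 8, 5 and 7 in the liver, 2 and 0 in fat, 0 and 2 in muscle, 0, 3, 1 and 4 for the differences between tissues and 10 and 9 for the levels, the same counts as without it except 2 for 3 in fat and in muscle. The cause of these shifts was not tested.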

Other observations

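Some family probes did not pass the detection filter in the liver and enter no count. Cyp4f18 by ILMN_3090207 was above background on 2 HFD arrays and on no ND or UR array of the liver, so no fold is given. Its second probe, ILMN_3018445, was detected on none of the 27 arrays. The Cyp4f16 probe ILMN_2719687 was detected on all 9 fat arrays and on no liver array.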
